A study of Mus musculus with 33 samples.

Results

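Interferon-stimulated genes are the genes that a cell switches on after an interferon binds its receptor, and their products detect, bind or degrade foreign nucleic acids and proteins. Members were taken by name, not by level. They were all symbols of the deposited count table in the numbered Oas, Ifit, Ifi, Irf, Gbp, Mx and Isg families, together with single genes such as Stat2, Rsad2, Bst2, Usp18, Ddx58, Ifih1, Dhx58, Xaf1, Cmpk2 and Rtp4. These were 62 of the 17982 genes in the table. Of the 62, 52 passed the filter on low counts and were tested, and 10 did not pass, among them Oas1d, Oas1e, Oas1h, Gbp4, Gbp8, Gbp11, Ifi202b, Ifi27l2b and Ifi44l.

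The study made osteoblast-like cells from mouse fibroblasts and compared their poly-A RNA with that of the starting cells and of other osteoblasts. The induced osteoblasts (iOB) were tail-tip fibroblasts of Col2.3GFP mice, whose green fluorescent protein is driven by a fragment of the type I collagen promoter that is active in osteoblasts. They were given lentivirus carrying transcription factor genes, freed of virus after 24 hours, split on day 3 and given osteogenic medium from day 5 on. The labels do not say when they were collected. Calvarial-OB were calvarial progenitor cells under osteoblast differentiation, and their RNA libraries are titled as dataset 2, so a difference due to the dataset and one due to the cells cannot be told apart. The fibroblasts were the tail-tip cells without induction. A further group, iOB GFP+, was sorted from iOB for green fluorescence and enters only through a result table that the authors deposited. No label gives age, sex or strain background, and none lists cells that received virus alone or osteogenic medium alone, so factors, virus, medium and days in culture cannot be told apart in iOB.

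Each of the 3 groups in the count table had 3 libraries, with 5646299 to 8187715 counts in iOB, 8219411 to 15023771 in calvarial-OB and 7634593 to 13367273 in fibroblasts. Nothing in the labels says that the libraries came from separate animals, so the tests measure the spread between these libraries, which may be technical. Levels are given as CPM, a library's counts scaled to a fixed total, on library sizes scaled with TMM. Fold changes are on the log2 scale with a standard error (SE), and a gene was called at an adjusted p below 0.05 in edgeR's quasi-likelihood test over all 13438 tested genes. Counts on the ribosomal RNA precursor Rn45s made up 5.08% to 5.48% of the total in iOB, 5.10% to 5.77% in calvarial-OB and 2.27% to 10.9% in fibroblasts, and their part in the results was not tested. Levels were not set against each other between genes, since gene lengths were not used. In bulk RNA, more cells of a type and more RNA per cell cannot be told apart.

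As background, cytosolic RNA sensors and Toll-like receptors start the production of type I interferon, which acts on a receptor that nearly every cell carries. The receptor's kinases activate Stat factors such as Stat2, which join Irf9 and bind the interferon-stimulated response element (ISRE) in target promoters, while interferon gamma acts mainly through gamma-activated sites (GAS). In bone, interferons are known for restraining osteoclast formation, and macrophages, which share a lineage with osteoclasts, express many of the same genes at rest.

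The promoters of 6 members that rose in iOB are shown because each holds the ISRE core, written GAAANNGAAA and read on both strands; capitals mark its matches. The letters are the 250 bases before the annotated start, 5′ to 3′ on the gene's strand, from RefSeq on GRCm38.p6. Oas1a lies at chr5:120907526-120907775 (minus strand), Oas1g at chr5:120887614-120887863 (minus strand), Bst2 at chr8:71537473-71537722 (minus strand), Gbp7 at chr3:142530086-142530335 (plus strand), Gbp3 at chr3:142559794-142560043 (plus strand) and Isg15 at chr4:156200819-156201068 (minus strand).
Oas1a: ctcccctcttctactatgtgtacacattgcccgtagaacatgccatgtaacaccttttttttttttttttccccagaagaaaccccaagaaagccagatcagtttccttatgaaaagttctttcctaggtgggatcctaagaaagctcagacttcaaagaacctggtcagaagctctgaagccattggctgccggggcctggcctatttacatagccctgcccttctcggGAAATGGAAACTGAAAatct
Oas1g: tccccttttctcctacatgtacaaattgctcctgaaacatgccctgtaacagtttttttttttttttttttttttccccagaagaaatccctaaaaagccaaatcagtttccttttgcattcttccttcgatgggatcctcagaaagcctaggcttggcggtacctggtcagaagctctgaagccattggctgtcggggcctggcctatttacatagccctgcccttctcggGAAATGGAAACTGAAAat
Bst2: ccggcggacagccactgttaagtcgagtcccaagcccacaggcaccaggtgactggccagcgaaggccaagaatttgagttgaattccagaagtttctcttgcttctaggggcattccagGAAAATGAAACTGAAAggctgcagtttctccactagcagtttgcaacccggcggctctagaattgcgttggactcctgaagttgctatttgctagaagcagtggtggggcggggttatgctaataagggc
Gbp7: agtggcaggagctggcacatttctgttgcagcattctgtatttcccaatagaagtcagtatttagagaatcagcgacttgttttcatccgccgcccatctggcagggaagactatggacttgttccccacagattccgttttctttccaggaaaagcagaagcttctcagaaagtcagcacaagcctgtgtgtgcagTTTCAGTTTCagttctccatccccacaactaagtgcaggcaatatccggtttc
Gbp3: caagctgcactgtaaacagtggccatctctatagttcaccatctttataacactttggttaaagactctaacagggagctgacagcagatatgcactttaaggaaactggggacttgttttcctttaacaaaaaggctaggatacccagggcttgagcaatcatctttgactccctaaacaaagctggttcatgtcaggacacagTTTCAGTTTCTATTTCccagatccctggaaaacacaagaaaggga
Isg15: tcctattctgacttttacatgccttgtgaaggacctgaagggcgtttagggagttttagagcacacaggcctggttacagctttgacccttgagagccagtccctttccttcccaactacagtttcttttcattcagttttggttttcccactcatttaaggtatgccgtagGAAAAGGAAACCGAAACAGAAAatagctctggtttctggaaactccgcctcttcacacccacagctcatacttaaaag

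RefSeq promoter windows, which run from 250 bases before to 50 bases after a start, were at hand for 41 of the 62 members. The ISRE core was present for 20 of these 41 genes (48.8%), against 3.99% of all 27025 genes with a window. GAS letters, TTCNNNGAA on both strands, were present for 11 of the 41 (26.8%), against 9.55% of all genes, and matches of both motifs shared bases in 1 window of a member. Of the 34 members with a window that rose in iOB relative to fibroblasts, 18 held the ISRE core. So did 2 of the 3 not called, 0 of the 1 that fell and 0 of the 3 not tested. Whether the motif goes with the rise was not tested. Both matches in Oas1a and in Oas1g, which are closely related neighbours, begin within 20 bases of the start. In Isg15 there are 3 overlapping matches, the farthest of which begins 78 bases before the start. These are matches of letters and not sites shown to be bound.

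Setting iOB against fibroblasts shows how tail-tip cells differed after the induction protocol. Of the 52 tested members, 47 rose in iOB (90.4%), 1 fell and 4 were not called, where 22.7% of all tested genes rose and 20.6% fell. The median log2 fold change was 2.04 over the members and -0.04 over all tested genes, and 38 of the 47 were at least 2-fold higher. In 46 members every iOB library was above every fibroblast library, and in 1 every iOB library was below, where this held for 30.2% and 32.8% of all tested genes. In calvarial-OB relative to fibroblasts 23 members rose, 4 fell and 25 were not called, against 28.4% of all genes higher and 27.4% lower, with a median of 0.64 over the members and 0.02 over all genes. Every calvarial-OB library was above every fibroblast library in 22 members and below in 4, against 30.2% and 30.3% of all genes. Ddx58, Ifi204 and Ifit2 were among the 4 that fell, and the number that fell was 1 without calvarial-OB replicate 2 and 2 without calvarial-OB replicate 3, fibroblast replicate 1 or fibroblast replicate 2. Both comparisons share the fibroblast libraries. Compared directly, 34 members were higher in iOB than in calvarial-OB, 3 were lower and 15 were not called, with a background of 24.7% higher and 24.1% lower and a median of 1.10 over the members and -0.03 over all genes. Without overlap 27 were higher and 4 lower in iOB than in calvarial-OB, against 28.1% and 27.3% of all genes. The 3 that were called lower were Ifi27l2a, Irf8 and Ifi30, and their number was 1 without iOB replicate 1.

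**Figure D1:**
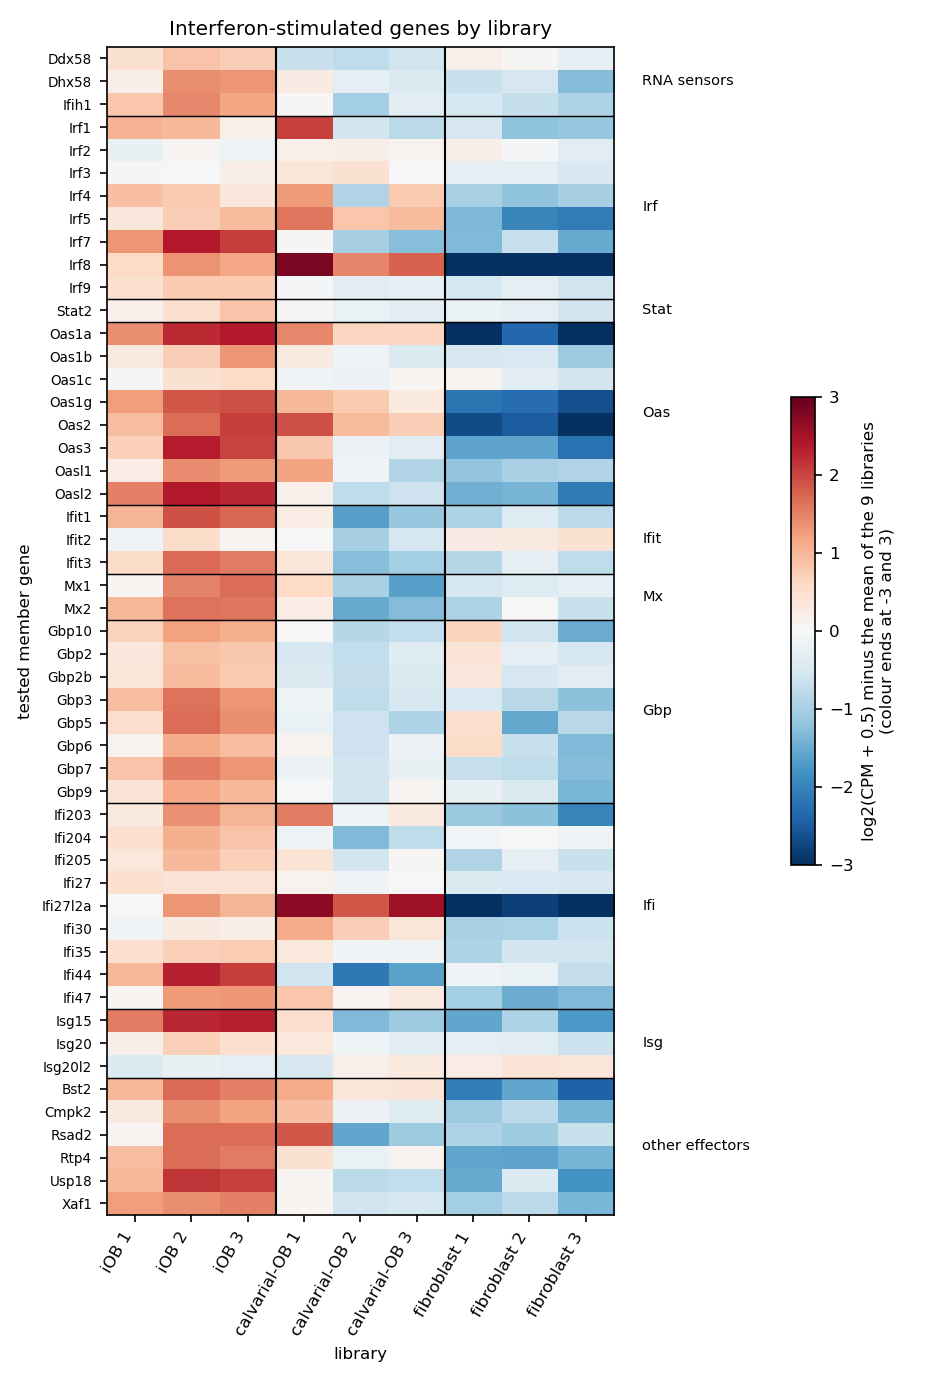
Levels of 51 tested members in the 9 libraries, as log2(CPM + 0.5) minus the gene's mean over the libraries, with colours ending at -3 and 3 and genes grouped by family. Most members are red in iOB and blue in fibroblasts, iOB replicate 1 is paler than the other iOB libraries, and calvarial-OB replicate 1 is redder than the other calvarial-OB libraries.

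Macrophage markers rose in both comparisons with fibroblasts, but not in iOB relative to calvarial-OB. All 21 markers in the table rose in iOB (median log2 fold change 5.74) and all 21 rose in calvarial-OB (median 6.89), relative to fibroblasts. Their summed level was 2493, 3894 and 4045 CPM in iOB, against 7521, 4101 and 4761 CPM in calvarial-OB and 87.0, 59.3 and 40.5 CPM in fibroblasts, where Clec4n was at 0 counts. Much of each sum was Lyz2, with 1378, 2135 and 2204 CPM in iOB and 2617, 1571 and 1859.6 CPM in calvarial-OB. In iOB relative to calvarial-OB 12 of the 21 were lower and 9 were not called (median -1.10), whereas the interferon-stimulated members were mostly higher. The summed level of the 62 members was 1439, 2101 and 1938 CPM in iOB, against 1429, 841 and 909.9 CPM in calvarial-OB and 692, 684 and 581 CPM in fibroblasts. The part of macrophage RNA in the members' levels was not tested. Markers of T and NK cells summed to at most 5.81 CPM and those of neutrophils and mast cells to at most 3.78 CPM in any library. The count table lacked 6 symbols of the first list and 4 of the second, and only Cd4 and Kit were tested. Cd4 rose by 4.19 in iOB and 7.98 in calvarial-OB relative to fibroblasts, with 5 counts in iOB, 104 in calvarial-OB and 0 in fibroblasts. Kit rose by 3.73 in iOB, with 51 counts there against 5 in fibroblasts, and was not called in calvarial-OB (1.55). Markers of B and plasmacytoid dendritic cells summed to 243 to 266 CPM in iOB, against 245 to 324 in calvarial-OB and 217 to 244 in fibroblasts, nearly all of it Tcf4. Bst1, another gene of that list, rose by 5.29 ± 0.46 in iOB and 4.84 ± 0.47 in calvarial-OB relative to fibroblasts (edgeR adjusted p = 3.4e-06 and 4.2e-06), with 7.56, 13.6 and 11.6 CPM in iOB, against 12, 7.11 and 5.60 CPM in calvarial-OB and 0.188, 0.283 and 0.332 CPM in fibroblasts. Its part in the members' levels was not tested. Siglech, which marks the plasmacytoid cells, had at most 0.326 CPM. All 10 osteoblast markers rose in iOB and in calvarial-OB relative to fibroblasts.

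**Figure D2:**
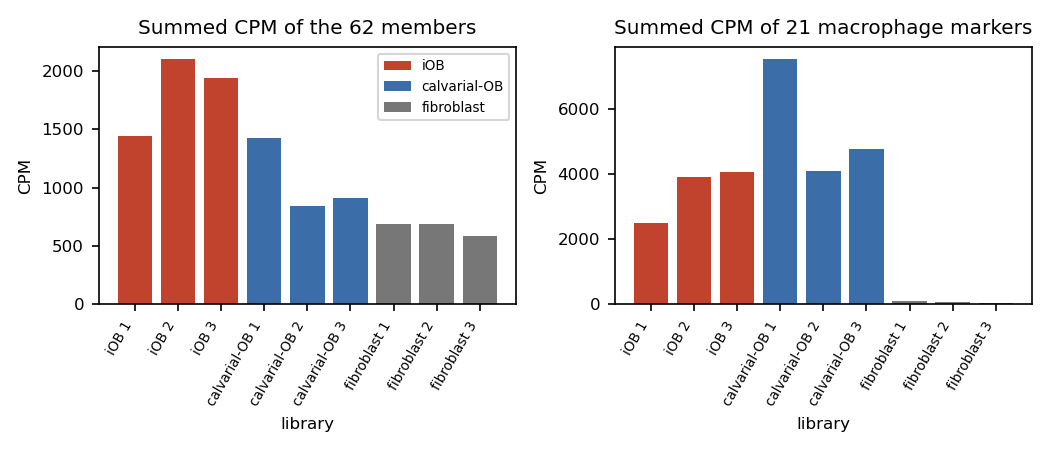
Summed CPM of the 62 members (left) and of the 21 macrophage markers (right) in each library, coloured by group, with bars from 0. The members sum highest in the iOB libraries, with calvarial-OB replicate 1 (1429 CPM) close to iOB replicate 1 (1439 CPM), while the markers sum highest in calvarial-OB replicate 1 (7521 CPM) and stay at or below 87.0 CPM in fibroblasts.

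Libraries of 1 group also differed. iOB replicate 1 was the lowest iOB library for 48 of the 52 tested members (92.3%), against 35.8% of all tested genes. Calvarial-OB replicate 1 was the highest of its group for 43 of 52 (82.7%), against 36.3% of all genes, and fibroblast replicate 3 was the lowest of its group for 35 of 52 (67.3%), against 33.8%. Without calvarial-OB replicate 1, 44 of 53 tested members were higher in iOB than in calvarial-OB. More genes of all kinds were also called in that fit, 7205 with 55.0% of them higher. With all libraries it was 6561 genes, with 50.6% of them higher.

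The cytosolic RNA sensors rose in iOB. Ddx58, which encodes RIG-I, had 80.0, 106 and 98.5 CPM in iOB, against 36.4, 34.1 and 39.6 CPM in calvarial-OB and 65.2, 59.6 and 49.4 CPM in fibroblasts. The 3 groups did not overlap, with iOB highest and calvarial-OB lowest. Ddx58 rose by 0.71 ± 0.13 in iOB (edgeR adjusted p = 0.0012), fell by 0.66 ± 0.14 in calvarial-OB (adjusted p = 0.0015), each relative to fibroblasts, and was higher in iOB than in calvarial-OB by 1.37 ± 0.14 (adjusted p = 1.1e-05). Ifih1, which encodes the long-RNA sensor MDA5, had 25.6, 39.2 and 32.7 CPM in iOB, against 14.5, 6.74 and 11.1 CPM in calvarial-OB and 9.52, 8.36 and 7.14 CPM in fibroblasts. All iOB libraries were above all others, and calvarial-OB overlapped with fibroblasts. The log2 fold change of Ifih1 was 1.97 ± 0.25 in iOB (edgeR adjusted p = 5.8e-05) and 0.38 ± 0.26 in calvarial-OB (not called, adjusted p = 0.23; called at 0.63 without calvarial-OB replicate 2, adjusted p = 0.037). Dhx58, which encodes LGP2, a helicase that modulates both sensors, had 11.9, 28.1 and 26.7 CPM in iOB, against 12.4, 8.46 and 7.55 CPM in calvarial-OB and 6.31, 7.08 and 3.90 CPM in fibroblasts. Its lowest iOB library was just below the highest calvarial-OB library, and all 6 were above the fibroblasts. Dhx58 rose by 1.98 ± 0.33 in iOB relative to fibroblasts (edgeR adjusted p = 0.00049) and by 1.25 ± 0.32 relative to calvarial-OB (adjusted p = 0.0062), and its 0.72 ± 0.34 in calvarial-OB was not called (adjusted p = 0.09) except without iOB replicate 1 (0.72, adjusted p = 0.031).

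Stat2 and Irf9, which bind the ISRE together, rose in iOB. Stat2 had 49.2, 62.6 and 79.8 CPM in iOB, against 45.3, 38.2 and 34.9 CPM in calvarial-OB and 38.2, 36.7 and 29.8 CPM in fibroblasts. The iOB libraries were the highest, by a narrow margin over calvarial-OB. Its rise in iOB was 0.87 ± 0.17 relative to fibroblasts (edgeR adjusted p = 0.0017) and 0.70 ± 0.17 relative to calvarial-OB (adjusted p = 0.0058). Irf9, which gives the complex its DNA contact, had 41.7, 51.4 and 52.0 CPM in iOB, against 28.8, 23.3 and 24.9 CPM in calvarial-OB and 20.6, 24.5 and 19.5 CPM in fibroblasts. Every iOB library was above the other 6, and Irf9 rose by 1.17 ± 0.14 relative to fibroblasts (edgeR adjusted p = 3.5e-05). In calvarial-OB, Stat2 at 0.18 ± 0.17 and Irf9 at 0.26 ± 0.14 were not called (adjusted p = 0.41 and 0.14).

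Of the 8 tested Irf genes, which encode transcription factors of the interferon system, 7 rose in iOB and 5 in calvarial-OB relative to fibroblasts, and the rest were not called. Of all tested genes, 22.7% rose in iOB and 28.4% in calvarial-OB. Irf7, the factor that amplifies type I interferon production, had 35.7, 75.1 and 61.0 CPM in iOB, against 14.5, 6.74 and 5.47 CPM in calvarial-OB and 5.28, 8.50 and 4.56 CPM in fibroblasts. All iOB libraries were above the other 6, and calvarial-OB overlapped with fibroblasts. Irf7 rose by 3.27 ± 0.38 in iOB (edgeR adjusted p = 2.9e-05), was 2.73 ± 0.36 higher in iOB than in calvarial-OB (adjusted p = 8.9e-05), and had 0.55 ± 0.40 in calvarial-OB relative to fibroblasts (not called, adjusted p = 0.27). Irf3, the constitutive factor that the sensors activate first, had 35.2, 34.4 and 39.1 CPM in iOB, against 44.7, 47.6 and 35.0 CPM in calvarial-OB and 28.5, 28.2 and 24.6 CPM in fibroblasts. Its groups lay close together, with a log2 fold change of 0.42 ± 0.14 in iOB (edgeR adjusted p = 0.025) and 0.64 ± 0.13 in calvarial-OB (adjusted p = 0.0015). The call in iOB was lost without iOB replicate 1 or 3 or fibroblast replicate 3 (0.36 to 0.44). Irf2, an antagonist of Irf1, was not called in any of the 3 comparisons, at -0.06 ± 0.15 in iOB and 0.18 ± 0.15 in calvarial-OB relative to fibroblasts (edgeR adjusted p = 0.77 and 0.32).

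Irf8 is a lineage factor of macrophages and dendritic cells and was highest in calvarial-OB. It had 9.23, 15.8 and 13.7 CPM in iOB, against 45.2, 17.2 and 21.2 CPM in calvarial-OB and 0.283, 0.283 and 0.249 CPM in fibroblasts. Every calvarial-OB library was above every iOB library, and fibroblasts were near 0. Irf8 rose by 5.52 ± 0.56 in iOB (edgeR adjusted p = 1.1e-05) and 6.61 ± 0.53 in calvarial-OB (adjusted p = 8.5e-07) relative to fibroblasts, and fell by 1.09 ± 0.32 in iOB relative to calvarial-OB (adjusted p = 0.014), a call lost without iOB replicate 1 (-0.90). Irf5 and Irf4, which are also active in myeloid cells, rose by 2.62 ± 0.29 and 4.13 ± 0.99 in iOB and by 3.11 ± 0.28 and 4.06 ± 0.96 in calvarial-OB (edgeR adjusted p = 2.0e-05, 0.0053, 2.5e-06 and 0.0034). Irf4 was low, with at most 2.30 CPM in any library. Irf1, a factor induced by interferon gamma and by inflammatory signals, had 111, 105 and 59.4 CPM in iOB, against 223, 36.4 and 30.5 CPM in calvarial-OB and 37.4, 22.7 and 24.1 CPM in fibroblasts. One library, calvarial-OB replicate 1, stood far above all others, and the other calvarial-OB libraries overlapped with fibroblasts. Irf1 rose by 1.71 ± 0.62 in iOB (edgeR adjusted p = 0.044), a call lost without iOB replicate 1 or 2 or any fibroblast library (1.55 to 1.97). Its 1.77 ± 0.62 in calvarial-OB (adjusted p = 0.03) was 0.23 without calvarial-OB replicate 1 and lost its call without fibroblast replicate 2 or 3 as well (adjusted p = 0.091 to 0.47). The log2 fold change of iOB relative to calvarial-OB was -0.06 ± 0.59 (adjusted p = 0.94) and 1.51 without calvarial-OB replicate 1 (adjusted p = 0.00035).

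**Figure D3:**
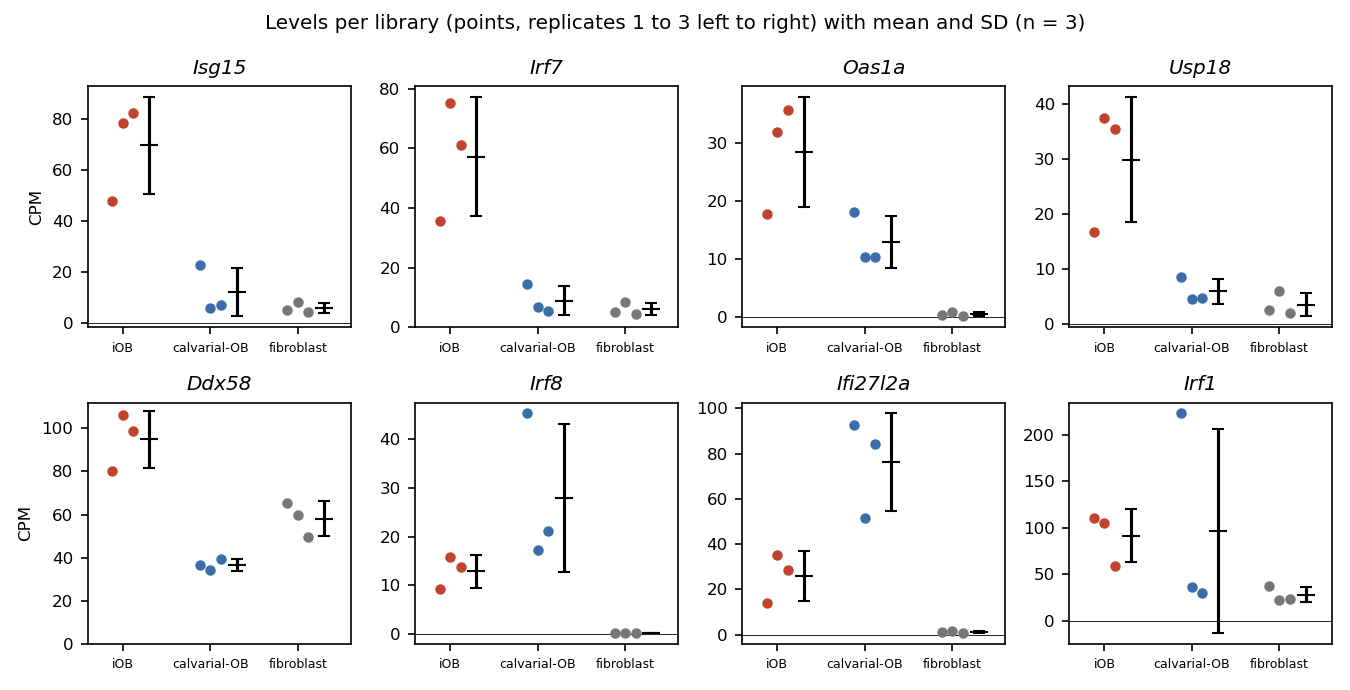
CPM per library of 8 members, chosen after their values were seen to show the patterns described, with the mean and SD of the 3 libraries in each group. Isg15, Irf7 and Usp18 are highest in iOB, Oas1a is raised in iOB and calvarial-OB, Ddx58 is lowest in calvarial-OB, Irf8 and Ifi27l2a are highest there, and Irf1 has 1 calvarial-OB library at 223 CPM.

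The oligoadenylate synthetases, which on binding double-stranded RNA make the messenger that activates RNase L, had the highest median fold change of the families in iOB. Of 8 tested Oas members, 7 rose in iOB with a median of 4.65, and 6 rose in calvarial-OB with a median of 2.62, relative to fibroblasts. Among all tested genes 22.7% and 28.4% rose. Oas1a had 17.7, 32.0 and 35.7 CPM in iOB, against 18.2, 10.3 and 10.4 CPM in calvarial-OB and 0.377, 0.850 and 0.166 CPM in fibroblasts. Fibroblasts had between 2 and 6 counts per library, and the lowest iOB library lay just below the highest calvarial-OB library. It rose by 6.08 ± 0.47 in iOB and 4.93 ± 0.49 in calvarial-OB (edgeR adjusted p = 1.3e-06 and 4.9e-06), and was 1.15 ± 0.30 higher in iOB than in calvarial-OB (adjusted p = 0.0072). Oas2 had 7.86, 13.6 and 18 CPM in iOB, against 16.3, 7.97 and 6.84 CPM in calvarial-OB and 0.188, 0.283 and 0 CPM in fibroblasts. Calvarial-OB overlapped with iOB, and 1 fibroblast library had no count. Its fold changes against fibroblasts were 6.46 ± 0.67 in iOB and 6.10 ± 0.67 in calvarial-OB (edgeR adjusted p = 1.1e-05 and 1.2e-05), and iOB did not pass the test against calvarial-OB (0.36 ± 0.37, adjusted p = 0.44; 0.89 without calvarial-OB replicate 1, adjusted p = 0.03). Oasl2, a synthetase relative with a ubiquitin-like end, had 58.4, 107 and 98.2 CPM in iOB, against 22.4, 11.6 and 12.9 CPM in calvarial-OB and 7.07, 7.36 and 4.23 CPM in fibroblasts. Here iOB stood well above both other groups. Oasl2 rose by 3.85 ± 0.31 in iOB and 1.34 ± 0.32 in calvarial-OB (edgeR adjusted p = 2.0e-06 and 0.0035) and differed by 2.50 ± 0.28 between iOB and calvarial-OB (adjusted p = 2.7e-05). Oas1g, Oas3, Oasl1 and Oas1b rose by 1.88 (Oas1b) to 6.41 (Oas1g) in iOB. Oas1c was not called in any comparison (0.74 ± 0.34 in iOB, adjusted p = 0.099). The Oas1 copies are closely related, and reads may have been split among them, which makes the value of each copy uncertain.

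Ifit proteins bind viral RNA and the translation machinery, and the 3 members did not move alike. Ifit1 had 42.6, 79.0 and 69.7 CPM in iOB, against 24.3, 6.37 and 9.11 CPM in calvarial-OB and 10.6, 15.6 and 11.6 CPM in fibroblasts. The lowest iOB library was above every other library, and calvarial-OB overlapped with fibroblasts. It rose by 2.36 ± 0.39 relative to fibroblasts (edgeR adjusted p = 0.00048) and was 2.29 ± 0.39 above calvarial-OB (adjusted p = 0.00053). Ifit3 had 23.6, 53.1 and 48.4 CPM in iOB, against 20.8, 6.25 and 7.68 CPM in calvarial-OB and 8.67, 13.0 and 9.29 CPM in fibroblasts. The order was the same, with a rise of 2.03 ± 0.41 relative to fibroblasts (edgeR adjusted p = 0.0017) and of 1.88 ± 0.40 relative to calvarial-OB (adjusted p = 0.0025). In calvarial-OB, Ifit1 at 0.07 ± 0.41 and Ifit3 at 0.16 ± 0.42 were not called, and both were below 0 without calvarial-OB replicate 1 (-0.65 and -0.53). Ifit2 had 15.7, 25.0 and 18 CPM in iOB, against 17.0, 8.21 and 11.6 CPM in calvarial-OB and 20.0, 20.5 and 23.3 CPM in fibroblasts. The iOB and fibroblast libraries overlapped, and calvarial-OB lay below the fibroblasts. Its -0.11 ± 0.23 in iOB was not called (edgeR adjusted p = 0.73). It fell by 0.80 ± 0.24 in calvarial-OB relative to fibroblasts (adjusted p = 0.012), a call lost without calvarial-OB replicate 2 or 3 or fibroblast replicate 3 (-0.74 to -0.57).

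Mx1 and Mx2 encode dynamin-like GTPases that block viral replication. Mx2 had 12.1, 19.0 and 18.8 CPM in iOB, against 6.90, 1.72 and 2.08 CPM in calvarial-OB and 2.83, 5.81 and 3.48 CPM in fibroblasts. All iOB libraries were above the rest, and the other groups overlapped. Mx2 rose by 2.08 ± 0.43 relative to fibroblasts and by 2.28 ± 0.43 relative to calvarial-OB (edgeR adjusted p = 0.002 and 0.0011). Mx1 had 1.51, 4.93 and 5.73 CPM in iOB, against 2.42, 0.490 and 0.130 CPM in calvarial-OB and 0.848, 0.991 and 1.08 CPM in fibroblasts. Calvarial-OB replicate 1 lay within the iOB range. Mx1 rose by 2.05 ± 0.70 relative to fibroblasts and 2.17 ± 0.71 relative to calvarial-OB (edgeR adjusted p = 0.033 and 0.024). The first call was lost without iOB replicate 2 or 3 or any fibroblast library (1.75 to 2.18, adjusted p = 0.078 to 0.11), and the second without iOB or calvarial-OB replicate 2 or 3 (1.49 to 1.98). Neither Mx gene was called in calvarial-OB relative to fibroblasts (-0.12 ± 0.81 for Mx1 and -0.19 ± 0.47 for Mx2), and both were above 0 without calvarial-OB replicate 3 (0.60 and 0.16). Without calvarial-OB replicate 1, Mx2 was called lower there (-1.01, adjusted p = 0.029).

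Guanylate-binding proteins are GTPases that attack the vacuoles of intracellular pathogens and respond strongly to interferon gamma. Of 8 tested Gbp members, 7 rose in iOB relative to fibroblasts (median 1.60) and 7 were higher in iOB than in calvarial-OB (median 1.45), while in calvarial-OB relative to fibroblasts 1 rose and 7 were not called (median -0.14). The shares of all tested genes that were higher were 22.7%, 24.7% and 28.4%, in that order. Gbp7 had 32.5, 51.7 and 45.0 CPM in iOB, against 15.5, 11.8 and 15.0 CPM in calvarial-OB and 10.8, 10.2 and 6.80 CPM in fibroblasts. The iOB libraries were the highest, and calvarial-OB lay just above fibroblasts. Gbp7 rose by 2.23 ± 0.22 in iOB (edgeR adjusted p = 7.0e-06) and 0.62 ± 0.22 in calvarial-OB (adjusted p = 0.03), and the call in calvarial-OB was lost without calvarial-OB replicate 1 or 3 or fibroblast replicate 3 (0.43 to 0.58). Gbp5 had 3.33, 8.03 and 6.54 CPM in iOB, against 1.82, 1.23 and 0.911 CPM in calvarial-OB and 3.20, 0.425 and 0.996 CPM in fibroblasts. Fibroblast replicate 1 was close to the lowest iOB library. It was 2.24 ± 0.54 higher in iOB than in calvarial-OB (edgeR adjusted p = 0.0052) and rose by 1.89 ± 0.53 relative to fibroblasts (adjusted p = 0.012), a call lost without iOB replicate 2 or fibroblast replicate 3 (1.60 and 1.65). Gbp2 had 31.2, 45.8 and 43.7 CPM in iOB, against 17.3, 14.5 and 18.9 CPM in calvarial-OB and 32.3, 20.4 and 16.8 CPM in fibroblasts. Fibroblast replicate 1 lay within the iOB range, and all iOB libraries were above calvarial-OB. Gbp2 rose by 0.79 ± 0.23 in iOB relative to fibroblasts (edgeR adjusted p = 0.014), which was lost without replicate 2 or 3 of iOB or of fibroblasts (0.64 to 0.75), and by 1.24 ± 0.23 relative to calvarial-OB (adjusted p = 0.00096). Gbp3, Gbp9, Gbp10 and Gbp2b rose by 0.86 (Gbp2b) to 2.21 (Gbp3) in iOB relative to fibroblasts, and none of the 4 was called in calvarial-OB. The rise of Gbp10 (1.34) lost its call in 7 of 14 alternatives, each of which left out 1 library other than calvarial-OB replicate 1 or fibroblast replicate 1 (0.91 to 1.48), and that of Gbp2b without iOB replicate 2 or fibroblast replicate 3 (0.72 and 0.77). Gbp6 did not pass in iOB (1.12 ± 0.45, adjusted p = 0.062), but was called higher in 6 of 14 alternatives: with no filter (1.15), the replicate block (1.25) or DESeq2 (1.15), and without iOB replicate 1 (1.37), calvarial-OB replicate 1 (1.16) or fibroblast replicate 1 (1.97, adjusted p = 0.0022). The authors' deposited table for unsorted iOB called it higher, at 1.06 ± 0.41 (adjusted p = 0.031). Gbp8, not tested, had 9, 10 and 4 counts in iOB, against 2, 1 and 7 in calvarial-OB and 0 in all fibroblast libraries. With 3 counts over the group as the floor for fibroblasts, it was at least 10.6-fold higher in iOB and at least 3.12-fold higher in calvarial-OB. Gbp copies also share sequence, so reads may have been divided between them.

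Of 9 tested Ifi members, all 9 rose in iOB, and 7 rose and 1 fell in calvarial-OB, relative to fibroblasts. Among all tested genes 22.7% rose in iOB, and 28.4% rose and 27.4% fell in calvarial-OB. Ifi44, an antiviral gene of type I interferon, had 10.4, 26.8 and 22.4 CPM in iOB, against 3.15, 0.735 and 1.30 CPM in calvarial-OB and 4.62, 4.25 and 2.82 CPM in fibroblasts. Fibroblasts lay between the other groups, with calvarial-OB overlapping them. Ifi44 rose by 2.37 ± 0.40 in iOB (edgeR adjusted p = 0.00053) and was 3.57 ± 0.45 above calvarial-OB (adjusted p = 5.5e-05), and its -1.20 ± 0.49 in calvarial-OB was not called (adjusted p = 0.055). It was called lower there without calvarial-OB replicate 1 (-1.81), without iOB replicate 1 (-1.20), with no filter (-1.19) and with DESeq2 (-1.17). Ifi204, a DNA-binding member of the p200 family, had 43.6, 65.3 and 56.8 CPM in iOB, against 28.0, 12.1 and 18.2 CPM in calvarial-OB and 29.2, 31.4 and 28.5 CPM in fibroblasts. The groups did not overlap. It rose by 0.90 ± 0.23 in iOB (edgeR adjusted p = 0.0086), and its fall by 0.61 ± 0.24 in calvarial-OB (adjusted p = 0.046) was lost in 9 of 14 alternatives, among them upper-quartile normalization, calvarial-OB without replicate 2 or 3, iOB without replicate 3 and the removal of any fibroblast library (-0.63 to -0.36). Between iOB and calvarial-OB it differed by 1.51 ± 0.24 (adjusted p = 0.00031). Ifi35 had 31.3, 36.6 and 37.8 CPM in iOB, against 27.4, 20.3 and 20.3 CPM in calvarial-OB and 11.4, 14.6 and 14.4 CPM in fibroblasts. Its groups were ordered without overlap, with rises of 1.39 ± 0.16 in iOB and 0.75 ± 0.16 in calvarial-OB (edgeR adjusted p = 2.8e-05 and 0.0018).

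Ifi203, Ifi205 and Ifi47 rose in both, by 2.52, 1.34 and 2.53 in iOB and by 2.28, 0.64 and 1.94 in calvarial-OB, where the call of Ifi205 was lost in 7 of 14 alternatives (0.41 to 0.65). Ifi27l2a and Ifi30 were highest in calvarial-OB. Ifi27l2a had 13.8, 35.4 and 28.6 CPM in iOB, against 92.6, 51.7 and 84.2 CPM in calvarial-OB and 1.22, 1.56 and 0.747 CPM in fibroblasts. No groups overlapped, and fibroblasts had at most 1.56 CPM. Ifi27l2a rose by 4.53 ± 0.43 in iOB and 6.07 ± 0.42 in calvarial-OB (edgeR adjusted p = 6.2e-06 and 3.0e-07) and fell by 1.55 ± 0.29 in iOB relative to calvarial-OB (adjusted p = 0.0011). Ifi30, a lysosomal thiol reductase of antigen processing that macrophages express, had 43.9, 57.6 and 55.0 CPM in iOB, against 104, 79.1 and 61.1 CPM in calvarial-OB and 23.9, 24.4 and 30.0 CPM in fibroblasts. It was highest in calvarial-OB, rising by 1.00 ± 0.19 in iOB and 1.63 ± 0.19 in calvarial-OB (edgeR adjusted p = 0.0011 and 1.6e-05). In iOB relative to calvarial-OB it fell by 0.63 ± 0.18 (adjusted p = 0.012), which was lost without iOB replicate 1 or calvarial-OB replicate 1 (-0.52 and -0.37). Ifi27 had 145, 140.0 and 142 CPM in iOB, against 112, 97.2 and 106 CPM in calvarial-OB and 78.1, 75.3 and 74.6 CPM in fibroblasts. The iOB libraries were nearly equal, and all groups were apart, with a rise of 0.90 ± 0.09 in iOB and 0.47 ± 0.09 in calvarial-OB (edgeR adjusted p = 1.1e-05 and 0.001). Ifi27 and Ifi27l2a overlap in the RefSeq annotation, as do Isg20l2 and Rrnad1, Irf5 and Tnpo3, Rtp4 and Masp1, Stat2 and Apof, and Ifit1 and Ifit1bl1. The strand setting of the counting is not given in the sources used here, so reads of such pairs may not be separable.

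Isg15, a ubiquitin-like modifier, had 47.9, 78.6 and 82.5 CPM in iOB, against 23.0, 6.13 and 7.29 CPM in calvarial-OB and 5.18, 8.21 and 4.56 CPM in fibroblasts. Every iOB library was at least as high as 47.9 CPM, and calvarial-OB replicate 1 stood between iOB and the rest. Isg15 rose by 3.58 ± 0.45 relative to fibroblasts (edgeR adjusted p = 5.0e-05) and 2.55 ± 0.41 relative to calvarial-OB (adjusted p = 0.00036), while its 1.03 ± 0.46 in calvarial-OB was not called (adjusted p = 0.076; 0.23 without calvarial-OB replicate 1). Without calvarial-OB replicate 2 or 3 it was called there, at 1.35 in both fits (adjusted p = 0.033 and 0.043). Usp18, the protease that removes Isg15 and restrains the type I interferon receptor, had 16.8, 37.5 and 35.5 CPM in iOB, against 8.60, 4.54 and 4.69 CPM in calvarial-OB and 2.54, 5.95 and 1.99 CPM in fibroblasts. All iOB libraries were above the other 6, and calvarial-OB overlapped with fibroblasts. It rose by 3.19 ± 0.42 relative to fibroblasts and 2.36 ± 0.39 relative to calvarial-OB (edgeR adjusted p = 7.2e-05 and 0.00038). At 0.83 ± 0.45 calvarial-OB was not called relative to fibroblasts (adjusted p = 0.13), but was without fibroblast replicate 2 (1.37, adjusted p = 0.027), with 0.51 without calvarial-OB replicate 1 and 0.53 without fibroblast replicate 3. Isg20l2, a nucleolar exonuclease related to Isg20 in sequence, was the only member that fell in iOB. It had 22.7, 26.4 and 24.9 CPM in iOB, against 21.9, 34.1 and 38.1 CPM in calvarial-OB and 36.2, 41.1 and 40.0 CPM in fibroblasts. The iOB libraries were below all fibroblast libraries, and calvarial-OB overlapped with both. Isg20l2 fell by 0.66 ± 0.18 in iOB relative to fibroblasts (edgeR adjusted p = 0.01).

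All 6 further effectors rose in iOB relative to fibroblasts, with a median of 2.87, and 4 of them rose in calvarial-OB. Usp18, above, was 1 of the 6. Among all tested genes 22.7% rose in iOB and 28.4% in calvarial-OB. Bst2, or tetherin, which holds budding virus at the cell surface, had 66.1, 108 and 95.7 CPM in iOB, against 72.7, 42.9 and 43.5 CPM in calvarial-OB and 7.44, 10.9 and 5.81 CPM in fibroblasts. Fibroblasts were far below both other groups, which overlapped. Bst2 rose by 3.52 ± 0.28 in iOB and 2.75 ± 0.28 in calvarial-OB (edgeR adjusted p = 1.9e-06 and 6.6e-06). Its difference of 0.77 ± 0.24 between iOB and calvarial-OB (adjusted p = 0.021) was lost without replicate 2 or 3 of either group (0.61 to 0.73). Rtp4, a chaperone of membrane receptors, had 20.0, 34.5 and 31.6 CPM in iOB, against 14.5, 8.95 and 11.2 CPM in calvarial-OB and 3.20, 3.12 and 3.65 CPM in fibroblasts. The groups were ordered without overlap, with 3.10 ± 0.25 in iOB and 1.78 ± 0.26 in calvarial-OB (edgeR adjusted p = 1.9e-06 and 9.8e-05). Xaf1, an antagonist of an apoptosis inhibitor, had 35.5, 39.4 and 42.7 CPM in iOB, against 15.3, 9.56 and 10.4 CPM in calvarial-OB and 6.97, 8.21 and 5.39 CPM in fibroblasts. Its iOB libraries were closely spaced and well above the rest, with a rise of 2.53 ± 0.20 relative to fibroblasts and 1.75 ± 0.19 relative to calvarial-OB (edgeR adjusted p = 1.7e-06 and 2.1e-05).

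Rsad2 and Cmpk2 lie side by side in the genome. Rsad2, or viperin, makes a nucleotide analogue that stops viral polymerases, and Cmpk2 is a mitochondrial nucleotide kinase. Rsad2 had 4.08, 13.3 and 13.3 CPM in iOB, against 15.3, 0.981 and 1.56 CPM in calvarial-OB and 1.79, 1.56 and 2.24 CPM in fibroblasts. Calvarial-OB replicate 1 was the highest library of all and the other calvarial-OB libraries were near or below the fibroblast libraries. Rsad2 rose by 2.43 ± 0.84 in iOB (edgeR adjusted p = 0.035), a call lost without iOB replicate 2 or 3 or any fibroblast library (2.18 to 2.63). In calvarial-OB its 1.57 ± 0.86 was not called (adjusted p = 0.14) and was -0.51 without calvarial-OB replicate 1. Cmpk2 had 3.18, 7.57 and 6.54 CPM in iOB, against 5.21, 2.21 and 1.89 CPM in calvarial-OB and 0.942, 1.27 and 0.664 CPM in fibroblasts. Calvarial-OB lay between the other groups, overlapping with iOB. Cmpk2 rose by 2.64 ± 0.49 in iOB and 1.69 ± 0.50 in calvarial-OB (edgeR adjusted p = 0.00095 and 0.013), and the second call was lost without calvarial-OB replicate 1 or fibroblast replicate 3 (1.11 and 1.47).

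**Figure D4:**
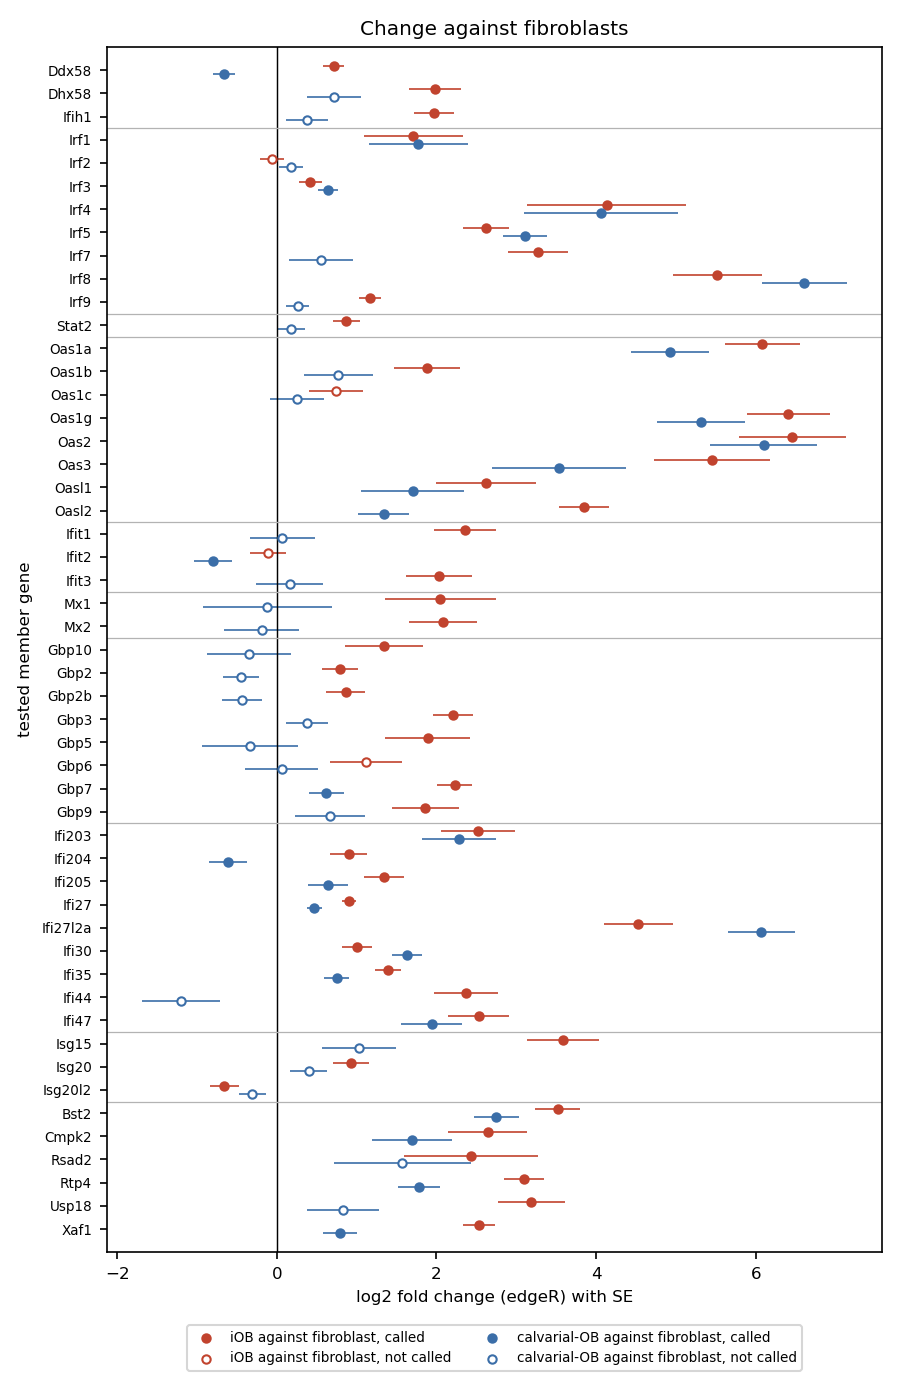
Log2 fold change with SE of 51 tested members in iOB and in calvarial-OB, both relative to the same fibroblast libraries, with filled points for called and open points for not called members. In iOB 46 of 51 points are filled and above 0, and in calvarial-OB 23 are.

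Interferon transcripts gave few counts. Of 21 ligand symbols looked for, 2 were in the count table and neither was tested. Ifnk had 2 counts in iOB, 1 in calvarial-OB and 1 in fibroblasts over all libraries, and Ifnz had 0 counts in iOB, 2 in calvarial-OB and 3 in fibroblasts. Polyadenylated counts at this depth cannot show that interferon was absent. Ifnar1, a chain of the type I receptor, had 91.8, 109.6 and 109 CPM in iOB, against 108, 103 and 97.6 CPM in calvarial-OB and 125, 115 and 110.4 CPM in fibroblasts. The groups lay close, and Ifnar1 was not called in iOB (-0.17 ± 0.10, edgeR adjusted p = 0.21). Of 13 receptor and signalling genes, 5 rose (38.5%) and 1 fell in iOB relative to fibroblasts (median 0.25), where 22.7% of all tested genes rose and 20.6% fell. In calvarial-OB 4 rose (30.8%) and 1 fell (median 0.19), a share of risers near the 28.4% of all tested genes, of which 27.4% fell. Ptpn6, a phosphatase abundant in blood cells, rose by 3.84 ± 0.28, Il10rb, a chain shared by the lambda interferon and interleukin receptors, by 1.59 ± 0.17, and Ifngr1, the ligand-binding chain for interferon gamma, by 0.93 ± 0.15 in iOB (edgeR adjusted p = 9.0e-07, 1.5e-05 and 0.00032). Jak1, the kinase used by all interferon receptors, fell by 0.43 ± 0.11 in iOB and 1.11 ± 0.11 in calvarial-OB (adjusted p = 0.0059 and 3.9e-06).

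Of 18 tested genes of nucleic acid sensing, 9 rose and 2 fell in iOB, and 9 rose and 4 fell in calvarial-OB, relative to fibroblasts. Among all tested genes the same 22.7% and 28.4% rose, and 20.6% and 27.4% fell. The sensing genes with the smallest adjusted p in iOB were the endosomal RNA receptors Tlr7 and Tlr8 and the DNA sensor Aim2, genes that macrophages express. They rose by 4.62 ± 0.33, 4.89 ± 0.53 and 6.40 ± 0.72 in iOB and by 5.51 ± 0.32, 4.64 ± 0.53 and 7.50 ± 0.64 in calvarial-OB (edgeR adjusted p between 7.8e-08 and 2.3e-05). Between iOB and calvarial-OB the smallest adjusted p belonged to Eif2ak2, the RNA-activated kinase PKR. It had 98.2, 117 and 114 CPM in iOB, against 53.8, 48.8 and 57.9 CPM in calvarial-OB and 56.9, 61.2 and 61.6 CPM in fibroblasts. The iOB libraries were above all others, and calvarial-OB overlapped with fibroblasts. Eif2ak2 was 1.04 ± 0.11 higher in iOB than in calvarial-OB and 0.88 ± 0.11 higher than in fibroblasts (edgeR adjusted p = 1.4e-05 and 4.3e-05).

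A second list of interferon-stimulated genes, outside the families above, was read in the same way. Of 42 tested genes, 37 rose and 5 were not called in iOB relative to fibroblasts (median 1.42), where 22.7% of all tested genes rose and 20.6% fell. In calvarial-OB 20 rose (47.6%) and 8 fell (19.0%), with a median of 0.38, against 28.4% and 27.4% of all tested genes. In iOB relative to calvarial-OB, 27 were higher and 2 lower (median 0.80), against 24.7% and 24.1% of all tested genes. In iOB the smallest adjusted p were those of Irgm1, a GTPase of cell-autonomous immunity, at 1.90 ± 0.12, Slfn5, a schlafen, at 4.43 ± 0.37, and Lgals9, a galectin, at 1.10 ± 0.10 (edgeR adjusted p = 4.4e-07, 2.5e-06 and 4.0e-06). The chemokine Cxcl10 was not called in iOB relative to fibroblasts (-0.07 ± 0.56, adjusted p = 0.93). It was named after its value was seen.

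Sorted cells were available through the authors' deposited tables. Those tables give a log2 fold change, an SE and an adjusted p per gene for iOB GFP+ and for unsorted iOB, each relative to fibroblasts. Since both are set against fibroblasts, the values are given side by side. In the authors' deposited table for iOB GFP+, 39 of the 55 members with an adjusted p were higher, 3 were lower and 13 were not called at 0.05 (median 1.37), where 23.7% of all genes were higher and 21.7% lower. In the authors' deposited table for unsorted iOB, 48 of 56 were higher, 1 was lower and 7 were not called (median 1.82), where 19.9% of all genes were higher and 15.0% lower. The difference between sorted and unsorted cells was not tested, because the libraries of the sorted cells were not analysed here.

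Several factors and effectors of the interferon response were called higher in both tables. The log2 fold change of Irf7 was 4.07 ± 0.32 in iOB GFP+ and 2.97 ± 0.45 in unsorted iOB in the authors' deposited tables (adjusted p = 3.0e-35 and 4.9e-10, from the authors' own fits). For Isg15 the authors' deposited tables list 3.36 ± 0.28 in iOB GFP+ and 3.15 ± 0.51 in unsorted iOB. Bst2 is listed at 3.43 ± 0.21 in iOB GFP+ and 3.42 ± 0.26 in unsorted iOB, and Oas1a at 5.60 ± 0.44 in iOB GFP+ and 5.51 ± 0.42 in unsorted iOB, in the authors' deposited tables. Of the factors that bind the ISRE, Irf9 had 1.38 ± 0.15 in iOB GFP+ and 1.19 ± 0.17 in unsorted iOB, in the authors' deposited tables. Irf1, for which the unsorted table of the authors holds no adjusted p, was called at 2.59 ± 0.35 in the authors' deposited table for iOB GFP+.

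Some members had lower values in the table of the sorted cells. In the authors' deposited tables, Gbp2 had -0.68 ± 0.34 in iOB GFP+, which was not called, and 0.80 ± 0.24 in unsorted iOB, which was. Gbp2b, Gbp5, Gbp6, Gbp10, Mx1, Ifi203, Ifi204 and Ddx58 had the same calls in the authors' deposited tables, with values between -0.81 (Gbp2b) and 0.78 (Mx1) in iOB GFP+ and between 0.73 (Ddx58) and 2.22 (Ifi203) in unsorted iOB. Ifit1 was called in both of the authors' deposited tables, at 1.26 ± 0.31 in iOB GFP+ and 2.12 ± 0.48 in unsorted iOB. Gbp8 had a higher value in the sorted cells and was called in both of the authors' deposited tables, at 5.35 ± 0.75 in iOB GFP+ and 3.20 ± 0.75 in unsorted iOB. Its base mean was 193 normalized counts in the authors' deposited table for iOB GFP+ and 3.9 in that for unsorted iOB. A base mean averages all libraries of a fit, and those of the iOB GFP+ fit are not given in the sources used here. These base means are therefore not levels of Gbp8 in sorted and unsorted cells. The reason for the higher fold change of Gbp8 was not tested. Ifit2 was lower in iOB GFP+ at -1.34 ± 0.35 and was not called in unsorted iOB at -0.09 ± 0.25 in the authors' deposited tables. The other members called lower in the authors' deposited table for iOB GFP+ were Isg20l2 at -0.51 ± 0.11 and Ifi27l2b at -2.54 ± 1.06, the second with a base mean of 2.07 normalized counts. A call in 1 table and not in the other does not show that the cells differ.

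Macrophage markers had positive fold changes in the sorted cells. In the authors' deposited table for iOB GFP+, 20 of the 21 markers had no adjusted p, with log2 fold changes between 2.52 (Cx3cr1) and 4.72 (C1qa), and Fcer1g was called at 4.84 ± 0.62. Those 20 had base means there from 7.99 (Aif1) to 3838 (Lyz2) normalized counts, and SE from 0.93 (Cd68) to 1.10 (Clec4n). Some genes with lower base means had an adjusted p there, such as Ifi44l at 0.929 normalized counts. Why the 20 markers have none is not given in the sources used here, and the reason was not tested. Whether all sorted libraries share the rise cannot be read from these values. In the authors' deposited table for unsorted iOB all 21 were called, between 3.23 (Aif1) and 6.68 (C1qb and Clec4n). Irf8 had 4.36 ± 0.78 in iOB GFP+ and 4.78 ± 0.47 in unsorted iOB in those deposited tables, and was called in both. The 10 osteoblast markers were all called higher in both of the authors' deposited tables, with a median of 7.46 in iOB GFP+ and 4.72 in unsorted iOB. The part of macrophage RNA in the sorted cells' values was not tested.

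**Figure D5:**
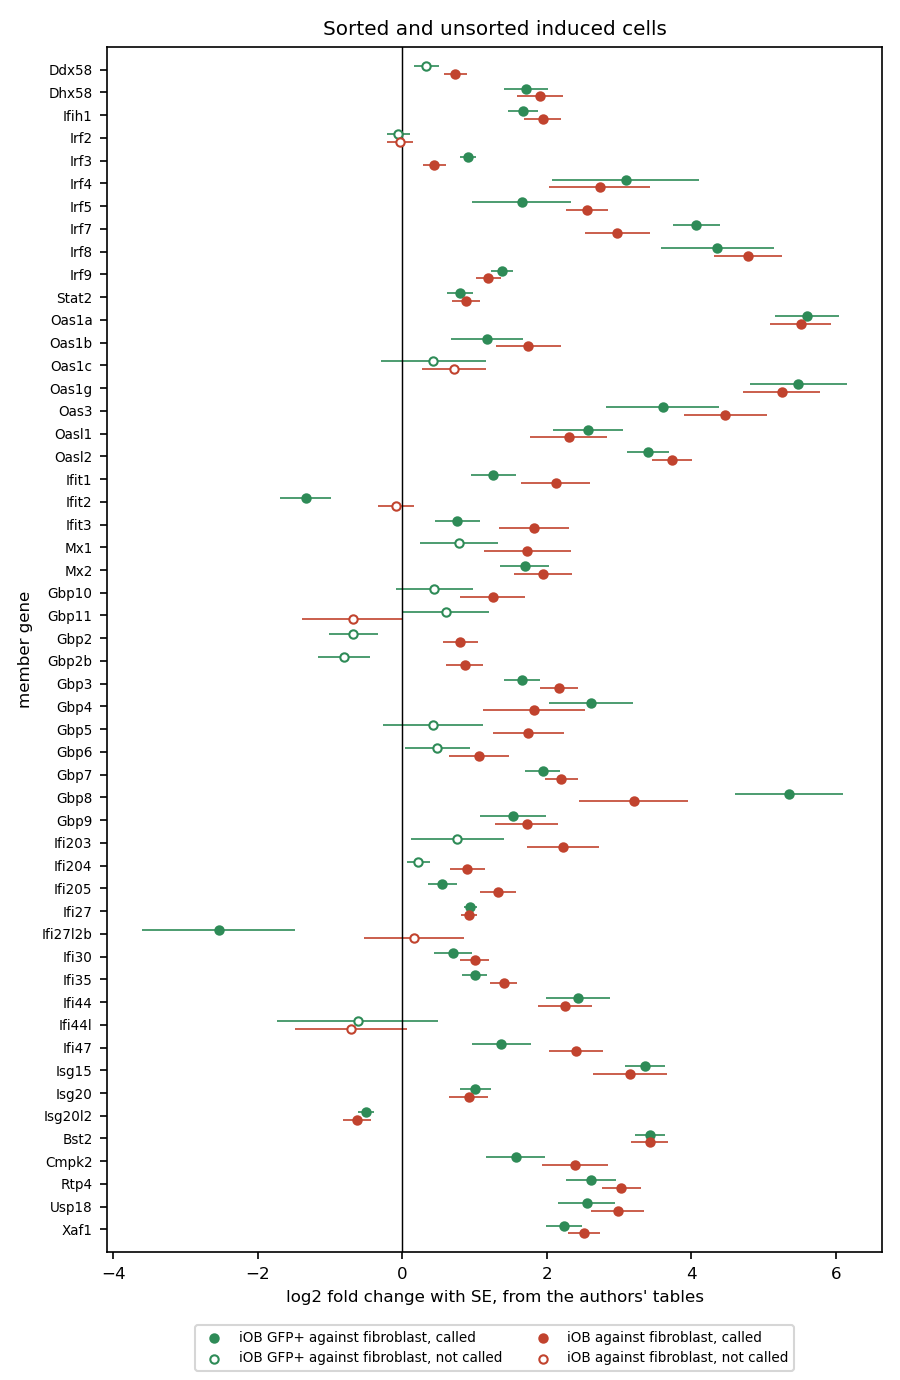
Log2 fold changes with SE from the authors' deposited tables for 52 members with an adjusted p in both, in iOB GFP+ and in unsorted iOB, each relative to fibroblasts, with open points for values not called at an adjusted p of 0.05. Irf7 lies higher in the sorted cells (4.07 against 2.97), and Ifit2, Gbp2 and Gbp2b lie below 0 there.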

How the data were processed

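RNA of iOB, calvarial-OB and fibroblasts was read from the authors' deposited table of whole-number counts per gene symbol, and that of iOB GFP+ from a deposited result table. Per the file headers, the authors' deposited result tables for iOB GFP+ and iOB hold a base mean (signal, size-factor normalized counts averaged over libraries), a Wald statistic (score), a log2 fold change, its standard error, and a p-value with its adjusted value, in DESeq2 layout. The submitters' processing notes name R 3.2.2, DESeq2, STAR 2.4.2a and Bowtie2, with mm9 as the genome build. Their roles, the counter, the annotation and the strand setting are not given in the sources used here. A DESeq2 fit of the deposited counts with a prior on fold changes matched the authors' deposited iOB log2 values (median absolute difference 0.000338), so those values are shrunken; for iOB GFP+ this is not known.

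The 9 libraries were fitted together in edgeR 4.0.16 (R 4.3.3, limma 3.58.1) with TMM normalization, a filter on low counts (filterByExpr) that left 13438 of 17982 genes, and quasi-likelihood tests of 3 comparisons with Benjamini-Hochberg adjustment. The fit was tested on simulated data with 200 changed genes. DESeq2 1.42.0 was an alternative. RefSeq promoter windows (GRCm38.p6) were searched in Python 3.11.15, and no coordinate was set against the files' build.

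The members and lists were chosen with earlier results of these data known. Genes with every library's value were the pathway's sensors, transcription factors and widely used interferon-stimulated genes, plus the called member with the largest rise and fall of each family in each comparison. Alternatives were upper-quartile normalization, no filter, a fit of only the groups compared, replicate number as a term, DESeq2 and leaving out each library. Depth was 5646299 to 15023771 counts per library. A few members enter the counts, medians and sums but are not reported here by name. Methylation data were not used here.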

Additional observations from a re-analysis of the deposited data

Results flagged for a closer look

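Ddx58 and Ifi204 moved in opposite directions relative to the same fibroblast libraries, higher in iOB and lower in calvarial-OB, and the difference between iOB and calvarial-OB was itself tested in edgeR. Ddx58 was higher in iOB than in calvarial-OB by 1.37 on the log2 scale (adjusted p = 1.1e-05) and Ifi204 by 1.51 (adjusted p = 0.00031). All 3 iOB libraries were above all 3 calvarial-OB libraries for both genes. The fall in calvarial-OB relative to fibroblasts was called for Ddx58 under all 14 alternatives, whereas the call was lost in 9 for Ifi204. Only calvarial-OB libraries are titled as dataset 2.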

How the results depend on the processing

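Each of the 3 comparisons was repeated under 14 alternatives. Of the 47 members higher in iOB than in fibroblasts, 39 were called under all of them, as was the 1 lower member. In calvarial-OB relative to fibroblasts this held for 18 of 23 higher and 1 of 4 lower members, and in iOB relative to calvarial-OB for 27 of 34 and 1 of 3. Leaving out 1 library at a time gave 40 to 49 higher and 1 lower in iOB relative to fibroblasts, 19 to 25 higher and 1 to 6 lower in calvarial-OB relative to fibroblasts, and 27 to 44 higher and 1 to 4 lower in iOB relative to calvarial-OB. With upper-quartile normalization 2 members were lower in calvarial-OB relative to fibroblasts, and the median shift of the log2 fold changes over all tested genes was 0.087 there, 0.011 in iOB relative to fibroblasts and -0.076 in iOB relative to calvarial-OB. At an adjusted p below 0.01, the authors' deposited tables gave 34 higher and 2 lower for iOB GFP+, and 43 higher and 1 lower for iOB.

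The values that changed sign were of fold changes not called in the comparison as reported. When 1 library was left out, log2 fold changes ranged from -0.34 to 0.02 for Ifit2 and -0.17 to 0.08 for Irf2 in iOB relative to fibroblasts. In calvarial-OB relative to fibroblasts they ranged from -0.81 to 0.69 for Gbp10, -0.70 to 0.71 for Gbp5, -0.33 to 0.91 for Gbp6, -0.65 to 0.40 for Ifit1, -0.53 to 0.46 for Ifit3, -1.86 to 0.60 for Mx1, -1.01 to 0.16 for Mx2 and -0.51 to 2.12 for Rsad2. In iOB relative to calvarial-OB they ranged from -0.04 to 0.93 for Ifi203, -0.49 to 1.51 for Irf1 and -0.39 to 0.57 for Irf4. DESeq2 gave 0.03 for Mx1 in calvarial-OB relative to fibroblasts, and upper-quartile normalization gave -0.01 for Irf4 in iOB relative to calvarial-OB. The cause was not tested.

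The labels do not say whether libraries with the same replicate number are paired. Deviations from the group mean were correlated between libraries of different groups. The correlations ran from -0.146 to 0.147 for the same number and from -0.199 to 0.148 for different numbers. With 3 libraries per group these values cannot exclude pairing. With the replicate block, 48 members were higher in iOB and 21 in calvarial-OB relative to fibroblasts, 33 were higher in iOB than in calvarial-OB, and Irf1 was at 0.39 in the last comparison. Gbp8, with 0 counts in all fibroblast libraries, has only a lower bound on its fold changes at this depth.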
